A study of Mus musculus with 24 samples.

Results

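The genes described here form the RAS-MAPK signalling module: receptor tyrosine kinases that feed it, its adaptors, RAS proteins and kinases, the RSK and MSK kinases that act after it, and the genes it switches on, many of which feed back on it. The members were chosen by name, as 43 of the 22911 gene symbols to which probes of the array could be joined through their RefSeq identifiers. Mouse lines were measured on 24 single-colour Agilent arrays, to compare tumour cells that had persisted in a dormant state in vaccinated mice with the parental cells injected. In the melanoma model, B16-M was the parental line (B16-F1 cells carrying GFP), used on 3 arrays, and B16-D the line isolated from a mouse with long dormant disease after vaccination with irradiated cells expressing GM-CSF, with 4 arrays. B16-D-733 (4 arrays), B16-D-735 (3 arrays) and B16-D-739 (3 arrays) were read as the study's second-generation dormant lines from a brain site, and are named here by the numbers in their titles, which the study's text does not use. In the leukemia model, M0-p20 (4 arrays) was read as the parental DA1-3b line and J365-p20 (3 arrays) as the dormant line DA1-3b/D365, isolated after vaccination with irradiated cells expressing IL-12; this reading was inferred from the only leukemia comparison of gene expression the study makes. The study's text gives another series record for its expression arrays, so that these arrays belong to the experiment it describes was inferred from the lines and the platform. Every line had been isolated, amplified in culture and frozen before RNA was taken, and each dormant line is a single isolate, so a difference between lines cannot be told apart from a difference between isolates. Nothing in the labels says that the replicates of a line were separate cultures. They may be technical, and the p-values measure only the spread between these samples. The titles of 3 of the 4 B16-D arrays and 3 of the 4 B16-D-733 arrays carry a date that stands in no other title, so in these lines the date cannot be told apart from the array number, nor from the line other than by the undated number 0 arrays.

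Receptor tyrosine kinases such as those for PDGF, FGF and HGF recruit adaptors and the exchange factor SOS1, which loads RAS with GTP, while GTPase-activating proteins such as neurofibromin return RAS to its inactive form. Active RAS starts a kinase chain of RAF, MEK and ERK, and ERK activates RSK and MSK kinases and the transcription of ETS factors and immediate early genes. Dual-specificity phosphatases, Sprouty and SPRED proteins are made in response and dampen the chain, and the pathway is a well known driver of growth in melanoma and in leukemia.

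Levels are given as log2 signal relative to the 75th percentile of the spots of the same array, so that a difference of 1 is a change of 2-fold, and a level serves to compare arrays for 1 probe and never 1 gene with another. A spot was called above background where the scanner software marked it as well above background, and a member was called detected in a line where that held on at least 50% of the line's arrays. A gene was tested where it was above background on at least 3 of the arrays fitted, other than in the test of the change between the models. That test was narrower, and its members were those tested in both the melanoma and the leukemia lines. A gene at background in 1 of the lines compared entered a test through arrays on which it was high, and had to differ to that extent. An array stood apart before any comparison was made: B16-D replicate 2 had 90.3% of its measuring spots well above background, against 46 to 55.8% on the other 23 arrays. It was left out of the tests, its values are given in the text where it matters, and the results with it are stated. The arrays whose titles carry the number 0 also stood apart for several members, a pattern chosen for description after the data were seen, and the tests were repeated without them. A fit with the date in the title as a block was also added after the data were seen, and is given where it changed the call of a member. The 24 arrays lay on 3 slides of 8 arrays, called slides 1, 2 and 3. Fewer cells of a type and less RNA per cell cannot be told apart in these samples.

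Between the dormant melanoma lines and B16-M the receptor gene Pdgfrb differed in all 4 lines, and few other members passed the test in any of them. Of the 43 members, 40 were bright enough to be tested in the melanoma lines, and the 4 comparisons share the same 3 B16-M arrays. The lines read as second generation may also share descent with B16-D, so the 4 dormant lines need not be independent. In B16-D against B16-M, 1 of the 40 passed an adjusted p of 0.05 and it was higher, where 3.60% of all 24310 genes tested passed. Here and below, all genes tested include array identifiers without a gene symbol, each counted as a gene, while every member has a symbol. In B16-D-733 it was 2 of 40, both higher, against 5.57% of all genes. In B16-D-735 it was 4 of 40, with 2 higher and 2 lower, against 5.03%. In B16-D-739 it was 1 of 40, higher, against 3.71%. The median difference of the tested members was 0.09, 0.06, -0.02 and 0.12 in the 4 lines in that order, against -0.04, 0.03, -0.01 and 0.00 over all genes, and setting members whose fold is only a lower bound to that bound leaves these medians as they are. At an unadjusted p under 0.05 the members numbered 7, 6, 11 and 5 of 40, where 16.6, 17.5, 16.3 and 14% of all genes did. An F test of the difference among the 4 dormant lines passed 5 of 40 members, against 7.03% of all genes. The member counts were small enough to move with 1 array. For B16-D the count was 2 without B16-M replicate 0, where 3.12% of all genes passed, and 3 without B16-D replicate 0, where 4.09% did. For B16-D-733 it was 1 without any of the 3 B16-M arrays (4.92, 3.05 and 3.36% of all genes without replicates 0, 1 and 2), and for B16-D-735 it was 2 without B16-D-735 replicate 0 (3.28%). For B16-D-739 it was 2 without B16-M replicate 0 (2.98%) or B16-D-735 replicate 1 (3.36%), and for the F test 2 without B16-D-735 replicate 0 (4.45%) or replicate 2 (3.57%).

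With the number 0 arrays left out, an alternative added after the data were seen, the members that passed were 5 in B16-D (3.97% of all genes), 4 in B16-D-733 (6.83%), 3 in B16-D-735 (4.09%), 3 in B16-D-739 (3.69%) and 6 in the F test (5.88%), each of 38 tested. These arrays were singled out by the values of members themselves, Etv4 and Etv5 among them. The counts and p-values without them are therefore a description and no separate test of such members. The B16-D-733 and B16-D-739 arrays followed the numbers of the B16-M arrays, so the title number was also used as a replicate block. Arrays of B16-D-739 and B16-M with the same number always shared a slide, so there the number cannot be told apart from the slide. Both B16-D-733 replicates 1 and 3 carry the number 1 in their titles (replicate 3 is a name given here), so the block sets both with B16-M replicate 1. With that block 5 members passed in B16-D-733, where 8.20% of all genes did, and 2 in B16-D-739, where 5.15% did. With B16-D replicate 2 included the counts were 1, 2, 4 and 1 in the 4 lines and 4 in the F test, where 2.95, 3.83, 3.42, 2.51 and 5.24% of all genes passed.

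**Figure D1:**
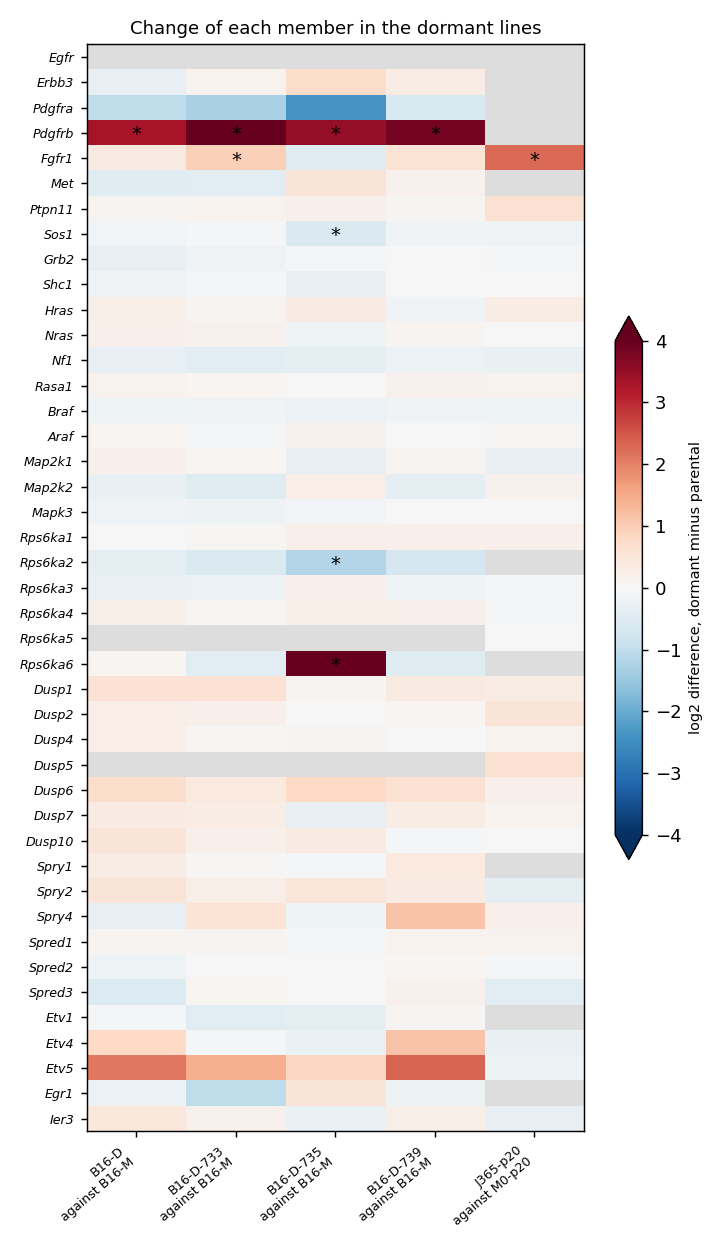
Each square is the log2 difference of a member (vertical axis, grouped by role) in a dormant line against its parental line (horizontal axis, 4 melanoma comparisons and the leukemia comparison), on a colour scale from -4 to 4, with an asterisk where the adjusted p was under 0.05 and grey where the member was not tested. Pdgfrb carries an asterisk in the 4 melanoma comparisons, with differences of 3.29, 4.21, 3.52 and 3.84, and Fgfr1 in the leukemia comparison, with 2.25.

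Most of the module was expressed everywhere. Detected members numbered 36 of 43 in B16-M, 38 in B16-D (40 with replicate 2), 37 in B16-D-733, 38 in B16-D-735, 37 in B16-D-739, and 33 in each of M0-p20 and J365-p20, and 29 were detected in all 7 lines. Egfr, the EGF receptor, was detected in no line, with a mean level of -6.86, and was above background only on B16-D replicate 2, at -3.20. Erbb3, Met, Rps6ka2, Spry1 and Etv1 were detected in every melanoma line and in neither leukemia line. Rps6ka5 and Dusp5 were detected in both leukemia lines and in no melanoma line. The members not detected in B16-M were Egfr, Pdgfrb, Rps6ka5, Rps6ka6, Dusp5, Spry4 and Egr1. B16-D lacked the same genes other than Pdgfrb and Egr1, and B16-D-733 those other than Pdgfrb. In B16-D-735 the undetected members were Egfr, Pdgfra, Rps6ka5, Dusp5 and Spry4, and in B16-D-739 they were Egfr, Rps6ka5, Rps6ka6, Dusp5, Dusp10 and Egr1.

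The labelled cell types were checked against marker genes, with levels summed as signal relative to the 75th percentile. The gene whose probe added most to a sum is named, which says nothing of its abundance beside other genes, since probes differ in brightness. All 10 melanocyte markers were above background on every array of each melanoma line, and their summed level was 1630 in B16-M, 1630 in B16-D, 1640 in B16-D-733, 1680 in B16-D-735 and 1620 in B16-D-739, with the probe of Mlana or Dct adding most. In M0-p20 and J365-p20 the sums were 2.32 and 4.47, with 4 of 10 above background, the Mitf probe adding most, and Tyrp1, Dct, Mlana, Gpr143 and Slc45a2 at background. All 12 myeloid markers were above background in both leukemia lines, with sums of 136 and 133. In the 5 melanoma lines 6, 4, 6, 7 and 6 of the 12 were, with sums of 6.22, 5, 6.08, 6.16 and 5.74, the Itgam probe adding most, and Ptprc and Laptm5 at background. Fibroblast markers above background numbered 1, 2, 2, 4 and 1 of 7 in B16-M, B16-D, B16-D-733, B16-D-735 and B16-D-739, with sums of 0.683, 0.644, 0.657, 1.36 and 0.356 and the Col1a2 probe adding most. Col3a1 was at background in all 5, and the sums in M0-p20 and J365-p20 were 0.123 and 0.109. For endothelial markers the numbers were 1, 0, 1, 1 and 1 of 6, with sums of 0.109, 0.105, 0.102, 0.0911 and 0.0966, the Pecam1 probe adding most, and Cdh5, Tek, Tie1 and Emcn at background; the leukemia sums were 0.441 and 0.481. Macrophage markers numbered 2, 1, 3, 2 and 3 of 6, with sums of 0.449, 0.833, 0.511, 0.374 and 0.471, the Cd68 probe adding most, Adgre1, C1qa and Mrc1 at background, and leukemia sums of 2.69 and 2.85. The B16-D value of 0.833 rested on replicate 0, with a sum of 1.6 against 0.391 and 0.504 on replicates 1 and 3. Lymphocyte markers numbered 1, 1, 1, 2 and 2 of 7, with sums of 1.22, 1.02, 1.07, 0.983 and 1.11, the Cd3e probe adding most, Cd3g, Cd2, Ms4a1 and Nkg7 at background, and leukemia sums of 5 and 3.48. Brain markers numbered 6, 5, 6, 5 and 6 of 8, with sums of 9.51, 9.15, 12.3, 8.88 and 9.15, Rbfox3 and Syt1 at background, and leukemia sums of 9.91 and 7.46. Of the 4 erythroid markers, Epor was above background on every array of all lines and Klf1 on every leukemia array, with sums of 0.227, 0.257, 0.289, 0.137 and 0.33 in the melanoma lines and 4.51 and 4.48 in the leukemia lines, and Alas2 was at background in the melanoma lines. The part of these other cell types in the results on members was not tested.

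Among the 6 receptors, Pdgfrb was the member that separated the dormant melanoma lines from the parental line. It encodes the beta receptor for PDGF, which is best known from pericytes and fibroblasts. Its levels on the 3 B16-M arrays were -6.87, -6.87 and -7.04, all at background. In B16-D they were -3.16, -3.45 and -4.32 on replicates 0, 1 and 3, with -3.23 on replicate 2. In B16-D-733 they were -2.06, -3.01, -2.63 and -3.17, in B16-D-735 -3.63, -3.29 and -3.32, and in B16-D-739 -3.38, -2.87 and -3.0. Every dormant melanoma array was above background and above every B16-M array, so the groups did not overlap. Because B16-M was at background, a fold is given as a lower bound: the mean of the bright line is set against the mean of the dim line in which each array's level is replaced by the higher of that array's lowest signal among probes well above background and the probe's own level. By this bound Pdgfrb was at least 2.39-fold higher in B16-D (mean -3.64 against -6.93, adjusted p = 4.8e-05), at least 4.54-fold in B16-D-733 (mean -2.72, adjusted p = 9.62e-07), at least 2.81-fold in B16-D-735 (mean -3.41, adjusted p = 1.11e-05) and at least 3.53-fold in B16-D-739 (mean -3.08, adjusted p = 6.39e-06). The measured differences were 3.29, 4.21, 3.52 and 3.84, with standard errors of 0.31, 0.29, 0.31 and 0.31. Pdgfrb entered the tests through the dormant lines alone, and with no filter the adjusted p was 7.32e-05, 1.42e-06, 1.72e-05 and 9.14e-06.

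The Pdgfrb difference was present within slides. On slides 1 and 3 it was 3.74 and 2.55 for B16-D, and slide 2 held none of the B16-D arrays tested. On slides 1, 2 and 3 it was 4.41, 4.81 and 3.78 for B16-D-733, 3.72, 3.24 and 3.58 for B16-D-735, and 4.04, 4.0 and 3.50 for B16-D-739. With slide as a block the differences were 3.30 (adjusted p = 6.17e-05), 4.28 (1.3e-06), 3.52 (1.25e-05) and 3.84 (7.41e-06). With the number 0 arrays left out they were 3.07 (adjusted p = 0.00147), 4.02 (0.000126), 3.65 (0.000465) and 4.02 (3e-04), and with replicate 2 included B16-D had 3.39 (9.93e-06). Over all alternatives the adjusted p ran from 9.93e-06 to 0.0209 in B16-D, 3.9e-07 to 0.000324 in B16-D-733, 1.55e-06 to 0.00697 in B16-D-735 and 7.83e-07 to 0.000961 in B16-D-739. The size depended on the processing. With normexp, which also took the median spot signal and an offset of 50, the 4 differences were 0.83, 1.18, 0.76 and 1.01. All were smaller than the bounds given. The bounds therefore hold only for the scanner's processed signal, and this was so for each gene that passed a test and is given with a bound. The F test among the dormant lines, whose means of Pdgfrb spanned 0.92, had an adjusted p of 0.215, and with the date as a block a span of 1.30 (0.0208). In the leukemia lines Pdgfrb was at background on all 7 arrays, from -7.18 to -6.72, and it was not tested there. The fibroblast markers summed to 0.683 in B16-M (SD over arrays 0.102) and, in the order of the dormant lines, to 0.644 (SD 0.118), 0.657 (0.0869), 1.36 (0.217) and 0.356 (0.0606). B16-D and B16-D-733 thus lay within the spread of B16-M, B16-D-735 above it and B16-D-739 below it, and the part of such cells in the Pdgfrb result was not tested.

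**Figure D2:**
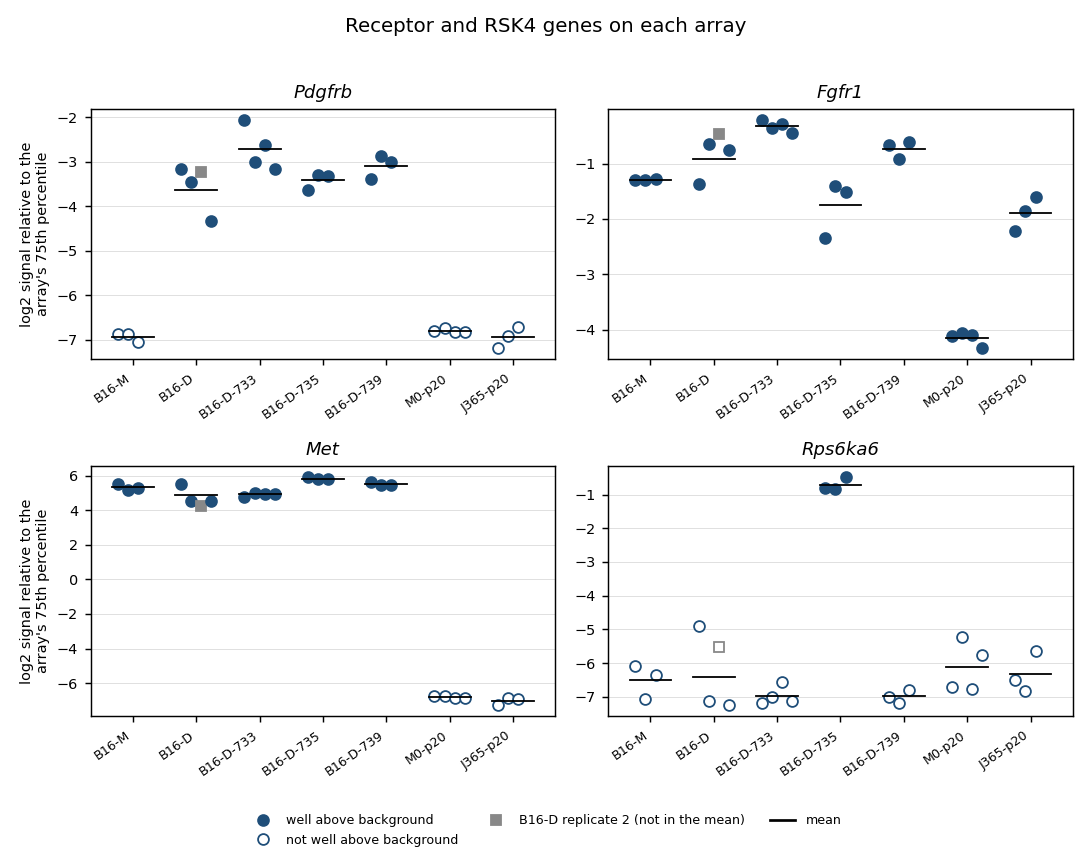
Points are the log2 levels relative to the array's 75th percentile (vertical axis) of Pdgfrb, Fgfr1, Met and Rps6ka6 on each array of the 7 lines (horizontal axis), filled where the probe was well above background and open where it was not, with black lines at the means and grey squares for B16-D replicate 2, which is not in the mean. Pdgfrb is open in B16-M (-7.04 to -6.87) and filled in the 4 dormant melanoma lines (-4.32 to -2.06), and Rps6ka6 is filled only in B16-D-735 (-0.84 to -0.48).

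Fgfr1, a receptor for fibroblast growth factors, was higher in B16-D-733 and differed among the dormant melanoma lines. Its levels were -1.30, -1.29 and -1.27 in B16-M and -0.21, -0.36, -0.28 and -0.44 in B16-D-733, with every B16-D-733 array above every B16-M array. The difference of 0.96 (SE 0.21) had an adjusted p of 0.0185. Levels were -1.36, -0.65 and -0.76 in B16-D, -2.35, -1.41 and -1.51 in B16-D-735 and -0.67, -0.92 and -0.61 in B16-D-739, so that B16-D overlapped B16-M while B16-D-735 lay below it and B16-D-739 above it on every array. Those 3 differences, 0.36 (adjusted p = 0.488), -0.47 (0.338) and 0.55 (0.282), did not pass. The line means spanned 1.43 among the 4 dormant lines, with B16-D-733 highest and B16-D-735 lowest (F test, adjusted p = 0.0057). With slide as a block the B16-D-733 difference was 0.94 (adjusted p = 0.0185) and the F test had 1.41 (0.0071), and within slides 1, 2 and 3 the B16-D-733 difference was 0.99, 1.08 and 0.90. The B16-D-733 call was lost without B16-M replicate 0 (0.96, adjusted p = 0.0531), replicate 1 (0.96, 0.0704) or replicate 2 (0.97, 0.0618). It was also lost, with the F call, when the 4 Fgfr1 probes were averaged (0.76, adjusted p = 0.195, and 1.24, 0.105), and the B16-D-733 call with the date as a block (0.79, 0.162); the adjusted p over all alternatives ran from 0.00281 to 0.195 and from 0.00233 to 0.105. The other 3 Fgfr1 probes were at background on nearly all arrays, and their differences in B16-D-733 were 0.62, 0.77 and 0.70.

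Met, the receptor for hepatocyte growth factor, was bright on every melanoma array and differed among the dormant lines. Levels were 5.50, 5.17 and 5.30 in B16-M, 5.50, 4.52 and 4.54 in B16-D (4.22 on replicate 2), 4.78, 4.99, 4.94 and 4.95 in B16-D-733, 5.91, 5.78 and 5.77 in B16-D-735, and 5.61, 5.45 and 5.44 in B16-D-739. Every B16-D-733 array was below and every B16-D-735 array above all B16-M arrays, and the other lines overlapped B16-M. The line means spanned 0.97 (F test, adjusted p = 0.0196, and 0.0255 with slide as a block, where they spanned 1.00), but the call was lost without B16-D-735 replicate 0 (0.92, adjusted p = 0.0738), replicate 2 (0.99, 0.0713) or replicate 1 (0.99, 0.0643) and with the date as a block (0.73, 0.259), over a range of 5.13e-05 to 0.259. Against B16-M the differences of -0.47 in B16-D (adjusted p = 0.28), -0.41 in B16-D-733 (0.307), 0.50 in B16-D-735 (0.243) and 0.18 in B16-D-739 (0.887) did not pass. Without B16-D replicate 0, the array at 5.50, they were -0.79 (adjusted p = 0.00246) in B16-D, -0.41 (0.025) in B16-D-733 and 0.50 (0.0131) in B16-D-735, and with the number 0 arrays left out B16-D had -0.70 (0.00962) and B16-D-735 0.54 (0.0256). A second Met probe gave -0.68, -0.63, 0.53 and 0.05 in the 4 lines.

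Pdgfra, the alpha receptor for PDGF, had levels of -4.47, -3.42 and -3.40 in B16-M and -7.36, -5.13 and -5.87 in B16-D-735. All 3 B16-D-735 arrays were at background and below the B16-M arrays, a measured difference of -2.35 (means -6.12 and -3.76, at least 2.5-fold lower) that did not pass (adjusted p = 0.107) and passed with the number 0 arrays left out (-2.09, adjusted p = 0.0308), without B16-D replicate 0 (-2.35, 0.0347) or with the date as a block (-2.35, 0.0356). It was -1.02 in B16-D (adjusted p = 0.567), -1.29 in B16-D-733 (0.4) and -0.60 in B16-D-739 (0.898), and with the replicate block the B16-D-733 difference was -1.37 (0.0282). Erbb3, the HER3 receptor that binds neuregulins, lay from -6.39 to -3.17 on the 16 melanoma arrays tested and passed in no line, with differences of -0.34, 0.13, 0.74 and 0.31. Egfr was not tested.

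Of the adaptors, RAS genes and core kinases, only Sos1 passed against B16-M in the fit reported, in B16-D-735, and only Map2k1 passed the F test, while Map2k2 passed in 3 lines and the F test with slide as a block. Sos1 encodes the exchange factor that loads RAS with GTP. Its levels were 0.84, 0.88 and 0.83 in B16-M and 0.04, 0.44 and 0.32 in B16-D-735, with no overlap, while they were 0.51, 0.83 and 0.85 in B16-D, 0.68, 0.87, 0.78 and 0.73 in B16-D-733, and 0.59, 0.81 and 0.72 in B16-D-739. In B16-D-735 Sos1 fell by 0.59 (SE 0.13, adjusted p = 0.0156, and 0.0141 with slide as a block), and the differences within slides 1, 2 and 3 were -0.51, -0.84 and -0.40. The call was lost without B16-M replicate 1 (-0.57, adjusted p = 0.0624), without B16-D-735 replicate 0 (-0.47, 0.0739), with the number 0 arrays left out (-0.48, 0.0547), with no filter on dim probes (-0.59, 0.0533) and with only B16-M and B16-D-735 in the fit (-0.59, 0.153), in a range over alternatives of 0.00652 to 0.153. The F test for Sos1 had an adjusted p of 0.0563, and passed with the strict filter (0.50, 0.0425) and without B16-D replicate 0 (0.57, 0.018). Ptpn11, which encodes the SHP2 phosphatase that passes receptor signals on, had a mean level of 4.83 and differences of 0.12, 0.13, 0.20 and 0.12. The adaptor Grb2 had a difference of -0.33 in B16-D (adjusted p = 0.293) and the adaptor Shc1 -0.31 in B16-D-735 (adjusted p = 0.14).

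None of the 4 RAS and GTPase-activating genes passed the limma test in any of the 4 lines, and at an unadjusted p under 0.05 there were only Nf1 in B16-D-733 and Hras in B16-D-735. Nf1, whose product neurofibromin turns RAS off, had a lower mean than B16-M in the 4 dormant lines, by differences of -0.34, -0.44, -0.40 and -0.23 (adjusted p = 0.415, 0.208, 0.323 and 0.743). Of the RAS genes, Hras had a difference of 0.34 in B16-D-735 (adjusted p = 0.157), and Nras a mean level of 2.70 with a span of 0.38 among the dormant lines (F test, adjusted p = 0.0688, and 0.0359 with slide as a block). For Hras the F test passed with quantile normalization (0.48, adjusted p = 0.0342). Rasa1, which encodes another GTPase-activating protein of RAS, had a mean level of -0.06 and differences from 0.00 to 0.18.

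Of the 5 core kinases, Map2k1, which encodes the ERK kinase MEK1, passed the F test. Its levels were 2.16, 1.98 and 2.07 in B16-M, 2.46, 2.23 and 2.14 in B16-D, 2.16, 2.20, 2.19 and 2.05 in B16-D-733, 1.67, 1.63 and 1.90 in B16-D-735, and 2.16, 2.09 and 2.33 in B16-D-739. The 3 B16-D-735 arrays were below every other melanoma array tested (B16-D replicate 2 read 1.83), at a difference of -0.34 from B16-M that did not pass (adjusted p = 0.139). The span of the dormant line means was 0.54 (F test, adjusted p = 0.0342), and this call was lost in 13 of 28 alternatives, among them B16-D replicate 2 included (0.46, adjusted p = 0.177), the number 0 arrays left out (0.45, 0.253), normexp (0.53, 0.215) and no filter (0.54, 0.124). With only the dormant lines in the fit it was 0.54 (adjusted p = 0.0637). It was also lost without B16-M replicate 2 (0.54, 0.0513), B16-D replicate 1 (0.57, 0.0572), B16-D-733 replicate 0 (0.54, 0.0536), replicate 1 (0.54, 0.0617) or replicate 2 (0.54, 0.0543), B16-D-735 replicate 0 (0.51, 0.159) or replicate 2 (0.49, 0.197), and B16-D-739 replicate 0 (0.54, 0.0569), in a range of 0.0139 to 0.253. The other MEK gene, Map2k2, had 3.15, 3.21 and 3.48 in B16-M and 2.47, 2.71, 3.22 and 2.77 in B16-D-733, which overlapped. Its differences of -0.30, -0.49, 0.27 and -0.38 did not pass (adjusted p = 0.547, 0.207, 0.669 and 0.499). With slide as a block they passed in B16-D (-0.46, adjusted p = 0.0258), B16-D-733 (-0.46, 0.00987) and B16-D-739 (-0.38, 0.04), and the F test gave 0.73 (0.00124) in place of 0.76 (0.117) and, with normexp, 0.73 (0.0484). The RAF kinase genes Araf (mean level 2.86) and Braf (mean level 1.40) and the ERK1 gene Mapk3 passed in no line, with differences from -0.22 to 0.17 over the 3 genes and 4 lines.

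An RSK kinase gene gave the largest measured difference of any member in the dormant melanoma lines. Rps6ka6, which encodes RSK4, was at -6.09, -7.06 and -6.36 in B16-M and at -0.80, -0.84 and -0.48 on the 3 B16-D-735 arrays. It was -4.90, -7.11 and -7.24 in B16-D (-5.53 on replicate 2), -7.17, -7.01, -6.57 and -7.12 in B16-D-733, and -7.00, -7.18 and -6.79 in B16-D-739. By the probe used, only the B16-D-735 arrays were above background among all 24, and they did not overlap with any other array. Another probe of the gene was above background on 1 of the 4 M0-p20 arrays. The gene was at least 18.3-fold higher in B16-D-735 than in B16-M (means -0.71 and -6.50, measured difference 5.80, SE 0.48, adjusted p = 7.92e-06), and the dormant lines spanned 6.28 (F test, adjusted p = 4.29e-06), a size that is not exact since the 3 other dormant lines were at background. The gene entered the tests only through the 3 B16-D-735 arrays, so it had to differ and these p-values add little to the levels; with no filter they were 1.06e-05 and 5.71e-06. With slide as a block the difference was 5.80 (adjusted p = 1.95e-05), within slides 1, 2 and 3 it was 5.88, 6.26 and 5.26, and over all alternatives that tested it the adjusted p ran from 3.82e-08 to 0.000942. The size depended on the processing. With normexp, on the median spot signal and with an offset, the difference was 2.36 (adjusted p = 2.03e-06), under the bound given, and the span 2.45 (1.04e-06). With the number 0 arrays left out only 2 arrays above background remained, and it was not tested. A second Rps6ka6 probe was higher by 1.96 in B16-D-735, with 2 of 3 arrays above background (means -5.09 and -7.05).

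Rps6ka2, which encodes RSK3, was lower in B16-D-735. Its levels were -2.16, -2.21 and -2.16 in B16-M, -3.50, -3.69 and -2.88 in B16-D-735, -2.69, -2.38 and -2.65 in B16-D, -2.75, -3.04, -2.82 and -2.37 in B16-D-733, and -2.68, -2.93 and -2.98 in B16-D-739. Every tested array of the 4 dormant lines was below every B16-M array, and B16-D replicate 2, at -1.87, was above them. In B16-D-735 it fell by 1.18 (SE 0.20, adjusted p = 0.00385), and the differences of -0.39 in B16-D (adjusted p = 0.368), -0.57 in B16-D-733 (0.119; with normexp -0.48, 0.0466) and -0.68 in B16-D-739 (0.0984) did not pass. The B16-D-735 difference was -1.18 with slide as a block (adjusted p = 0.00577) and -0.72, -1.29 and -1.53 within slides 1, 2 and 3. Its call was lost with the number 0 arrays left out (-1.10, adjusted p = 0.0998) and with only the lines compared in the fit (-1.18, 0.0752), in a range of 0.000818 to 0.0998. The F test for the gene had an adjusted p of 0.11. Without B16-D-735 replicate 1 the B16-D-739 difference was -0.68 (adjusted p = 0.0397) and the F test 1.02 (0.0264). Rps6ka1, the RSK1 gene, had a mean level of 2.97 over all lines, and neither it, the RSK2 gene Rps6ka3 nor the MSK2 gene Rps6ka4 passed in a dormant melanoma line, with differences from -0.26 to 0.22. Rps6ka5, which encodes MSK1, lay from -7.20 to -4.59 on the melanoma arrays tested, above background only on B16-D replicate 3, and was not tested.

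The DUSP genes, whose phosphatases remove phosphate from ERK and related kinases, showed no change from B16-M that passed limma's test in the fit reported, with unadjusted p under 0.05 for Dusp6 and Dusp7 in B16-D, Dusp7 in B16-D-733, Dusp6 and Dusp7 in B16-D-735, and Dusp7 in B16-D-739. Dusp7 differed among the dormant lines. Its levels were 3.39, 3.16 and 3.29 in B16-M, 3.74, 3.48 and 3.61 in B16-D, 3.59, 3.53, 3.63 and 3.55 in B16-D-733, 3.11, 2.82 and 2.90 in B16-D-735, and 3.70, 3.49 and 3.59 in B16-D-739. Among the arrays tested those of B16-D-735 lay below all B16-M arrays and those of the other 3 lines above them, while B16-D replicate 2, at 3.30, lay within the B16-M range. The line means spanned 0.66 (F test, adjusted p = 0.00361, and 0.00552 with slide as a block), the call held in the 28 alternatives run, over a range of 0.000434 to 0.0387, and the differences from B16-M of 0.32, 0.29, -0.34 and 0.31 did not pass (adjusted p = 0.145, 0.144, 0.118 and 0.188), though with quantile normalization that of B16-D-735 did (-0.40, 0.0133). Dusp6, an ERK phosphatase that ERK signalling itself switches on, had a mean level of 4.13. It read 3.81, 2.82 and 3.19 in B16-M and 4.69, 3.54 and 4.02 in B16-D-735, which overlapped, and its differences were 0.70, 0.40, 0.81 and 0.61 (adjusted p = 0.243, 0.555, 0.162 and 0.395). Dusp1, an immediate early phosphatase gene, had differences of 0.59, 0.57, 0.12 and 0.35, none of which passed; in B16-D-733 it passed with the replicate block (0.63, adjusted p = 0.04) and with the number 0 arrays left out (0.49, 0.0271). With the date as a block Dusp1 passed in B16-D (1.21, adjusted p = 0.0132), B16-D-733 (1.27, 0.00742) and the F test (1.15, 0.0278), and Dusp10 in B16-D (1.15, 0.0259) and the F test (1.21, 0.0488). That block ties B16-D and B16-D-733 to B16-M only through their undated number 0 arrays. On these Dusp1 read 1.66 and 1.16, where the other arrays of the lines lay at 0.19 to 0.38 and 0.57 to 0.66. In the fit reported Dusp2, Dusp4 and Dusp10 passed in no line, with differences from -0.06 to 0.50, and Dusp5, with a mean level of -6.12, was at background on all melanoma arrays.

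None of the 6 Sprouty and SPRED genes, which encode feedback inhibitors of the pathway, passed in a dormant melanoma line by limma, and 0 of their tests there had an unadjusted p under 0.05. Spry1 read 1.03, 0.88 and 1.15 in B16-M and 1.35, 1.20 and 1.68 in B16-D-739, with no overlap, and this did not pass (0.39, adjusted p = 0.39). Spry4, with a mean level of -5.01, was above background on 6 of the 16 melanoma arrays tested. Spred1 had a mean level of 1.50, and the differences of Spry2, Spred1, Spred2 and Spred3 lay between -0.54 and 0.52.

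Among the transcription factors and early genes that ERK switches on, Etv5, Etv4 and Egr1 depended on which arrays were used. Etv5, an ETS factor gene induced by ERK, read 1.27, -1.28 and -0.75 on B16-M replicates 0, 1 and 2. It read 2.16, 1.68 and 1.70 in B16-D (1.22 on replicate 2), 1.98, 0.77, 1.20 and 0.84 in B16-D-733, 2.26, -0.78 and 0.24 in B16-D-735 (replicates 0, 2 and 1), and 2.71, 1.57 and 1.91 in B16-D-739. All tested B16-D and B16-D-739 arrays were above the 3 B16-M arrays, though B16-D replicate 2 lay below B16-M replicate 0. B16-D-733 and B16-D-735 overlapped with them, and within each line the number 0 array was the highest. The differences from B16-M were 2.10 (SE 0.73, adjusted p = 0.151), 1.45 (SE 0.68, 0.3), 0.83 (SE 0.73, 0.734) and 2.32 (SE 0.73, 0.122), and none passed. With the number 0 arrays left out they were 2.71 (SE 0.34, adjusted p = 0.00568) in B16-D, 1.95 (SE 0.31, 0.0108) in B16-D-733, 0.75 (0.35) in B16-D-735 and 2.76 (SE 0.34, 0.00445) in B16-D-739, and the F test gave 2.01 (0.0307) in place of 1.49 (0.646). Etv5 and Etv4 were among the genes by which these arrays were singled out, so their p-values without them are a description only. With the replicate block the B16-D-733 difference of Etv5 was 1.57 (SE 0.41, adjusted p = 0.0452) and the B16-D-739 difference 2.32 (SE 0.44, 0.0132). Without B16-M replicate 0 alone the B16-D difference was 2.87 (adjusted p = 0.047) and that of B16-D-739 3.08 (0.0328). The adjusted p over alternatives ran from 0.00568 to 0.502 in B16-D, 0.0108 to 0.795 in B16-D-733, 0.281 to 1 in B16-D-735 and 0.00445 to 0.441 in B16-D-739.

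Slides did not give Etv5 1 direction throughout. On slides 1 and 3 its difference was 2.67 and 0.43 in B16-D, and on slides 1, 2 and 3 it was 1.95, 3.26 and -0.47 in B16-D-733, 0.99, 3.54 and -2.05 in B16-D-735, and 2.66, 2.85 and 1.43 in B16-D-739. Slide 3 held the number 0 arrays of B16-M and B16-D-739, slide 2 those of B16-D-733 and B16-D-735, and slide 1 that of B16-D. The slide 2 values of B16-D-733 and B16-D-735 thus set a number 0 array against B16-M replicate 1. The slide 3 value of B16-D-739 set 0 against 0. With slide as a block the differences were 2.24, 1.46, 0.83 and 2.32 (adjusted p = 0.143, 0.251, 0.593 and 0.115). Etv4, a closely related ETS factor gene, read 1.03, -1.76 and -1.88 in B16-M, 0.73, -0.60 and -0.38 in B16-D, 0.07, -1.27, -1.13 and -1.51 in B16-D-733, 0.73, -2.26 and -1.86 in B16-D-735, and 1.34, -0.46 and -0.09 in B16-D-739. B16-D, B16-D-733 and B16-D-739 overlapped B16-M only through its number 0 array, and B16-D-735 also without it. The differences of 0.79, -0.09, -0.26 and 1.14 did not pass (adjusted p = 0.721, 0.995, 0.988 and 0.715). With the number 0 arrays left out they were 1.33 (SE 0.21, adjusted p = 0.0134, in a range of 0.0134 to 0.982) in B16-D, 0.52 (0.157) in B16-D-733, -0.24 (0.716) in B16-D-735 and 1.55 (SE 0.21, 0.0062, in a range of 0.0062 to 1) in B16-D-739, and the F test gave 1.79 (0.00564).

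Egr1, an immediate early zinc finger gene with a mean level of -4.61, read -0.79, -4.64 and -5.11 in B16-M, -1.94, -4.90 and -4.41 in B16-D, -2.54, -4.93, -4.98 and -5.64 in B16-D-733, -0.56, -4.08 and -4.33 in B16-D-735, and -1.46, -4.43 and -5.28 in B16-D-739. The number 0 array was high in each line and the rest low, the lines overlapped, and the differences of -0.24, -1.01, 0.52 and -0.21 did not pass. Ier3, an early response gene tied to cell survival, read 0.68, 0.72 and 0.67 in B16-M and 0.60, 1.26 and 1.45 in B16-D, which overlapped; its difference of 0.41 did not pass (adjusted p = 0.248) and was 0.66 with the number 0 arrays left out (0.0471) and 0.66 without B16-D replicate 0 (0.00667). Its F test passed in both cases, at 0.90 (adjusted p = 0.0384) and 0.94 (0.00155). Etv1, the remaining ETS factor gene, had differences of -0.08, -0.45, -0.39 and 0.12.

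Across the module, 6 of the 40 members tested (15%) were highest on the number 0 array in all 5 melanoma lines, namely Etv4, Etv5, Egr1, Dusp1, Dusp2 and Dusp6, against 3.75% of all genes. Pdgfra was lowest on it in all 5, 1 of 40 members against 9.15% of all genes. The number 0 array minus the mean of the other arrays of its line was 4.09, 2.71, 2.64, 3.64 and 3.40 for Egr1 in B16-M, B16-D, B16-D-733, B16-D-735 and B16-D-739. These sizes are not exact for Egr1, since its other arrays were all at background in B16-M, B16-D-733 and B16-D-739, as was B16-D replicate 1. For Etv4 the difference was 2.86, 1.22, 1.37, 2.79 and 1.62, and for Etv5 2.29, 0.47, 1.04, 2.53 and 0.96. On average over the 5 lines Dusp2, Dusp1 and Dusp6 were higher on the number 0 array by 0.95, 0.60 and 0.57, while the median over all genes was 0.02. The remaining transcription factor and early genes were Ier3, highest on it in 0 of the 5 lines (mean -0.18), and Etv1, highest in 4 (mean 0.47). Spry4, a dim gene highest on it in 4 of the 5 lines and at background on most other arrays, was higher by 1.98 on average, a size that is not exact, with -0.79 in B16-D, where its number 0 array was at background. Pdgfra was lower in each line, at -1.06, -2.62, -1.11, -1.86 and -1.26, with its number 0 array at background in the 4 dormant lines. Normexp and quantile normalization each gave 6 members highest in all 5 lines, with Dusp7 in place of Dusp6 under normexp. In M0-p20 and J365-p20 the same difference was -0.32 and -0.66 for Etv4, -0.29 and 0.03 for Etv5, -1.24 and -1.01 for Dusp1, 0.12 and -0.30 for Dusp2, -0.47 and -0.05 for Dusp6, and 1.80 and -0.23 for Egr1, which was at background on all leukemia arrays. Of the 6 genes in these 2 lines, only Egr1 in M0-p20 was highest on the number 0 array. What set these arrays apart was not tested.

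**Figure D3:**
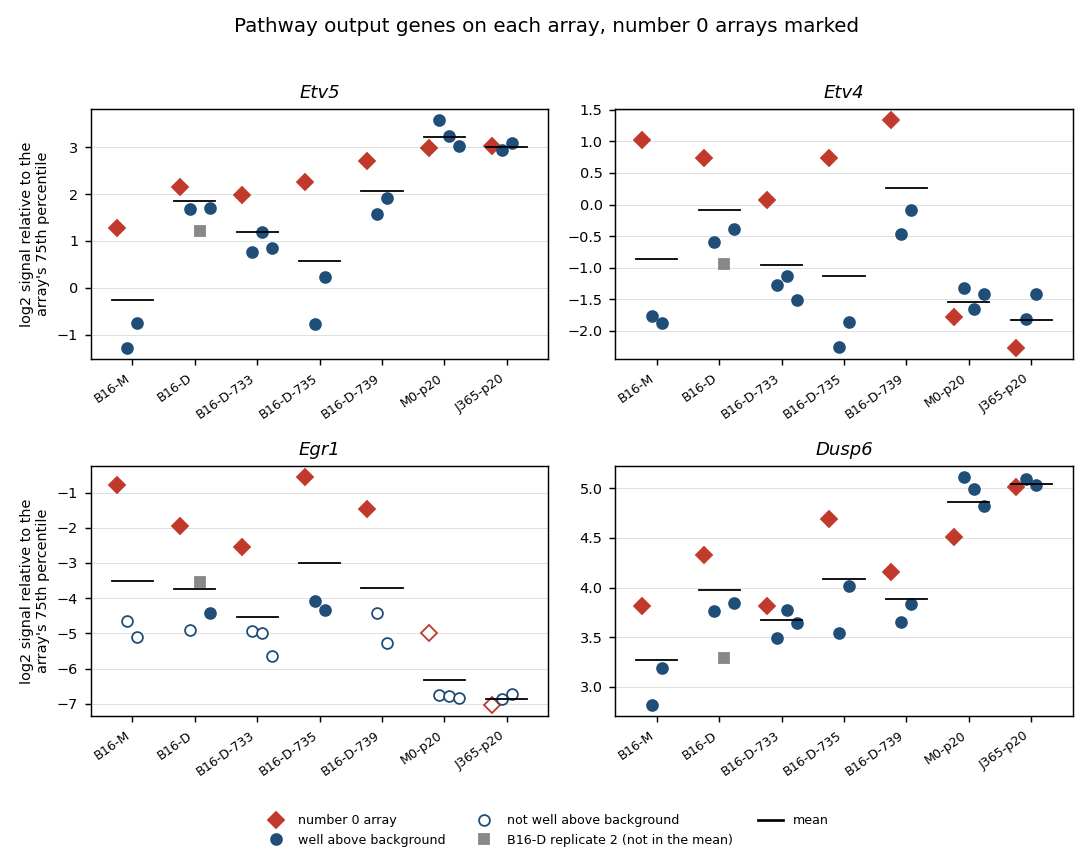
Points are the log2 levels relative to the array's 75th percentile (vertical axis) of Etv5, Etv4, Egr1 and Dusp6 on each array of the 7 lines (horizontal axis), with red diamonds for the number 0 arrays and grey squares for B16-D replicate 2. In all 5 melanoma lines the red diamond is the highest of the arrays tested, at -0.79 against -4.64 and -5.11 for Egr1 in B16-M.

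Since Etv5 and Dusp6 were both highest on the number 0 arrays, their promoters are shown, chosen after the values were seen. The windows are 300 bases long around the gene start and come from RefSeq, build GRCm38.p6, which held a promoter for 34 of the 43 members. Dusp1 and Dusp2 were also highest on the number 0 arrays and had promoters there, which are not shown. They were searched on both strands for CCAAT (the CCAAT box), TGACGTCA (the site of CREB factors) and CCGGAAG (a site of ETS factors). Capitals mark CCAAT or, for the opposite strand, ATTGG. Etv5 has a start at chr16:22439521-22439820 (minus strand) with 3 CCAAT matches and another at chr16:22438319-22438618 (minus strand) with 1, and Dusp6 at chr10:99262981-99263280 (plus strand) has 1; none of the 3 windows holds the other motifs. Of 32841 promoters of this length, 37.4% hold CCAAT, 1.79% TGACGTCA and 8.86% CCGGAAG, and a match is a description only.
Etv5, first start: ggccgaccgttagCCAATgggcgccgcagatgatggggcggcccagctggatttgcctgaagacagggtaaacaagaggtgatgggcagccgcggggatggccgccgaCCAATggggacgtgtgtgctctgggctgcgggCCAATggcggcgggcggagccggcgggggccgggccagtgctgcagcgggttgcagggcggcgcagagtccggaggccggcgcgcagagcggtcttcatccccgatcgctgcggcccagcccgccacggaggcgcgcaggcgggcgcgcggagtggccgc
Etv5, other start: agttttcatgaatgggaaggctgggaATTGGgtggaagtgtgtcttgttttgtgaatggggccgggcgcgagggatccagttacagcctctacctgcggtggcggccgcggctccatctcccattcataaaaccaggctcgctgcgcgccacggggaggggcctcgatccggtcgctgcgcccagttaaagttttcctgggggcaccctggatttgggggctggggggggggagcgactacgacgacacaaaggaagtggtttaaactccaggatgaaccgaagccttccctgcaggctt
Dusp6: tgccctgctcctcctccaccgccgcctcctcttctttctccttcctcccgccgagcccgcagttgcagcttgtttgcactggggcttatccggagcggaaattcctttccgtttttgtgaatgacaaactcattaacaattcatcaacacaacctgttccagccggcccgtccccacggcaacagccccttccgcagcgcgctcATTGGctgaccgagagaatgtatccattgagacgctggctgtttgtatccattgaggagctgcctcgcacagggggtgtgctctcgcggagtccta

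In the leukemia model, Fgfr1 was the member that differed between the dormant and the parental line. Its levels were -4.11, -4.06, -4.09 and -4.33 in M0-p20 and -2.21, -1.86 and -1.60 in J365-p20. All arrays were above background and every J365-p20 array was above every M0-p20 array. Of 33 members tested, 1 passed in J365-p20 against M0-p20, where 1.07% of all 22967 genes did, and 4 had an unadjusted p under 0.05, where 6.89% of all genes did; the members' median difference was 0.01, against -0.02 over all genes. The Fgfr1 difference was 2.25 (SE 0.19, means -1.89 and -4.15, adjusted p = 0.00123). Blocked by slide it was 2.21 (adjusted p = 0.0049), within slides 1, 2 and 3 it was 2.46, 2.01 and 2.22, and with the number 0 arrays left out it was 2.43 (0.0125). It rests on 1 of 4 probes: the other 3 were at background in both lines, with differences of -0.13, -0.16 and -0.10. With normexp it was 1.13 (adjusted p = 0.02), and the mean of the 4 probes gave 0.47 (0.596), in a range over alternatives of 0.000681 to 0.596. The call was also lost with the replicate block, though these lines were not treated as paired. The next members by p were Ptpn11 (0.62, adjusted p = 0.275), Dusp2 (0.53, 0.466) and Spred3 (-0.44, 0.68). Not tested were Egfr, Erbb3, Pdgfra, Pdgfrb, Met, Rps6ka2, Rps6ka6, Spry1, Etv1 and Egr1, which were above background on too few leukemia arrays. Among the output genes Etv5 had a difference of -0.20 (adjusted p = 0.975).

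Whether the change from parental to dormant line differed between the models was tested for 31 members, as B16-D minus B16-M less J365-p20 minus M0-p20. Fgfr1 passed, at -1.89 (SE 0.30, adjusted p = 0.00102), since its difference was 0.36 in the melanoma and 2.25 in the leukemia. This was 1 of 31 members, where 1.36% of all 20817 genes passed, with 4 members at an unadjusted p under 0.05, where 7.87% of all genes were. Blocked by slide it was -1.94 (adjusted p = 0.00038); it was lost with normexp (-0.81, 0.168) and with the mean of all probes (-0.19, 1), in a range of 0.000112 to 1. Etv5 had 2.30 (adjusted p = 0.351) and, with the number 0 arrays left out, 2.99 (0.00379), where Etv4 had 1.48 (0.0247) and Ier3 1.14 (0.00818). Since Etv5 and Etv4 helped to single out these arrays, their p-values without them are a description only. Ptpn11 passed with quantile normalization (-0.58, adjusted p = 0.043) and Map2k2 with slide as a block (-0.57, 0.0405). Pdgfrb, at background in the leukemia, was not tested in the fit reported. Under the strict filter or with no filter, which admit it, its difference was 3.42 and passed (adjusted p = 5.61e-06 and 1.27e-05). This size is not exact, since B16-M and both leukemia lines were at background.

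The parental lines of the models differed in most members. Of 42 tested, 34 passed in B16-M against M0-p20, where 56.7% of all 26460 genes did. In B16-M 19 were higher, against 25.5% of all genes, and 15 lower, against 31.2%. Met, at 5.17 to 5.50 in B16-M and -6.86 to -6.74 in M0-p20, was at least 1020-fold higher in B16-M (measured difference 12.13, adjusted p = 1.11e-20). The feedback gene Spry1 was at least 51.5-fold higher (7.50, adjusted p = 3.22e-16), the ETS factor gene Etv1 at least 42.3-fold (5.58, 3.63e-12), and Rps6ka2 at least 5.61-fold (4.70, 2.69e-14), with M0-p20 at background and no overlap in all 3. In the other direction Rps6ka5, the MSK1 gene, read -0.56, -0.12, -0.21 and -0.79 in M0-p20 and was at least 21.9-fold lower in B16-M, where it was at background (-5.22, adjusted p = 5.94e-10), and Dusp5, above background on 3 of the 4 M0-p20 arrays, was at least 1.91-fold lower (-3.15, 1.01e-07). Of genes expressed in both, Etv5 was lower in B16-M by a difference of -3.46 (adjusted p = 4.37e-05), Ier3 by -3.17 (7.75e-08), Rps6ka1 by -2.56 (1.73e-10) and Dusp6 by -1.58 (2.1e-05). Etv5 read 2.99, 3.58, 3.23 and 3.03 in M0-p20, above the 3 B16-M arrays. The receptor gene Fgfr1 was higher in B16-M by 2.86 (adjusted p = 4.06e-10). Differences that involve dim probes were smaller with normexp, at 8.15 for Met, 3.87 for Spry1, 3.47 for Etv1, 1.46 for Rps6ka2, -2.56 for Rps6ka5 and -0.78 for Dusp5. They were 1.54 for Fgfr1, 0.61 for Pdgfra, -0.84 for Dusp10 and -0.73 for Spred3, and all of these still passed.

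By role, 4 of 5 receptors tested were higher in B16-M and none lower, where 25.5% of all genes were higher and 31.2% lower. Beside Met and Fgfr1, Pdgfra was at least 1.87-fold higher (adjusted p = 0.000154). Erbb3, above background on 2 of the 3 B16-M arrays, was at least 1.33-fold higher (0.000502). Of the adaptors Ptpn11 (1.21) and Shc1 (1.18) were higher and Grb2 (-1.13) lower, and of the RAS genes and regulators Hras (1.88), Nf1 (1.85) and Nras (0.64) were higher. Among the core kinases Map2k2 (1.10), Araf (0.76) and Mapk3 (0.59) were higher and Map2k1 (-1.24) and Braf (-0.44) lower, while of the RSK and MSK genes Rps6ka4 (-0.74) was lower beside Rps6ka1 and Rps6ka5. Dusp2 (1.38), Dusp7 (1.18) and Dusp4 (0.70) were higher and Dusp10 (-1.81) lower beside Dusp5 and Dusp6. Spred3 (-1.46), Spry2 (-1.13), Spred2 (-0.77) and Spred1 (-0.69) were lower, in contrast to Spry1. Egr1 was at least 2.22-fold higher (adjusted p = 0.0448) with a range of 0.00014 to 0.32 over alternatives. It was above background on 1 of the 3 B16-M arrays, replicate 0 at -0.79, and on none of M0-p20, so the bound rests on that array. Without it the measured difference was 1.46 (0.32), between arrays that were all at background, so that no fold is given. With all number 0 arrays left out, B16-M replicate 0 among them, the call held at 1.91 (0.00014), again between arrays at background in both lines. With normexp Egr1 had 0.85 (adjusted p = 0.185) and Erbb3 0.39 (0.0502), and with no filter Egr1 had 2.82 (0.0682). The Egr1 call was also lost without M0-p20 replicate 1 (2.68, 0.0811), replicate 2 (2.67, 0.0853) or replicate 3 (2.66, 0.0891), without J365-p20 replicate 0 (2.82, 0.0524), replicate 1 (2.82, 0.0519) or replicate 3 (2.82, 0.0516), and without B16-D-733 replicate 1 (2.82, 0.0518) or replicate 2 (2.82, 0.0508) or B16-D-739 replicate 1 (2.82, 0.0503). Braf was lost without B16-M replicate 0 (-0.35, adjusted p = 0.0579) and Mapk3 without B16-M replicate 2 (0.49, 0.0582) and with only the lines compared (0.59, 0.0808). With the mean of all probes Braf (-0.51, adjusted p = 0.0567) and Spred2 (-0.43, 0.0566) were lost. Pdgfrb, Sos1, Rasa1, Rps6ka3, Rps6ka6, Dusp1, Spry4 and Etv4 did not pass, and of these Dusp1 (-0.67, adjusted p = 0.000597) and Sos1 (0.28, 0.0446) passed with the number 0 arrays left out.

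Of 103 other genes of the pathway, 102 were on the array and 81 were tested in the melanoma lines. In B16-D 3 were higher and 0 lower, in B16-D-733 5 and 3, in B16-D-735 2 and 5, and in B16-D-739 3 and 2, where 3.60, 5.57, 5.03 and 3.71% of all genes passed, and 7 passed the F test, where 7.03% of all genes did. Their median differences were -0.10, -0.09, -0.14 and -0.03. Dusp9, which encodes an ERK phosphatase, was at background in B16-M and higher by at least 1.42-fold in B16-D (2.25, adjusted p = 0.00139, 2 of 3 arrays above background), at least 2.57-fold in B16-D-733 (3.1, 2.54e-05) and at least 1.91-fold in B16-D-739 (2.68, 0.000222), with an F test of 2.06 (0.00367) among the dormant lines, of which B16-D-735 was at background. With normexp these differences of Dusp9 were 0.43 (adjusted p = 0.081), 0.66 (0.00275) and 0.62 (0.00937). Emp1, a membrane protein gene, was higher in B16-D (1.68, adjusted p = 0.00166), B16-D-733 (1.82, 0.000259) and B16-D-735 (1.46, 0.00276). Trib1, a pseudokinase gene, was higher in B16-D (0.98, adjusted p = 0.00647), B16-D-733 (0.74, 0.0164) and B16-D-739 (0.70, 0.0403), with an F test of 0.97 (0.0136). The ephrin receptor gene Epha4 was lower in B16-D-733 (-2.88, adjusted p = 0.00589), a size that is not exact, with 1 of 4 arrays above background. In B16-D-739 Epha4 was at least 4.39-fold lower (0.0346). The adaptor gene Shc3 was at least 1.69-fold higher in B16-D-733 (0.0369) and 3.24-fold in B16-D-739 (0.00212). With normexp Epha4 had -1.03 and -0.87 in these lines, and Shc3 0.36 (adjusted p = 0.222) and 0.74 (0.0186).

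The receptor gene Kit was higher in B16-D-733 (0.93, adjusted p = 0.032; F test 1.12, 0.0364) and the gene of its ligand, Kitl, lower (-0.72, 0.0382; F test 1.25, 0.00322). In B16-D-735 the urokinase receptor gene Plaur (-0.98, adjusted p = 0.00259; F test 1.48, 0.000351), the RAS relative Mras (-1.13, 0.0155) and the growth factor gene Fgf1 (-0.84, 0.00938) were lower and Egf higher (0.96, 0.0239), and Fgf1 was also lower in B16-D-733 (-0.76, 0.0116). Rasgrp3, an exchange factor gene, was lower in B16-D-735 (-0.68, adjusted p = 0.0264) and Phlda1 in B16-D-739 (-0.42, 0.0481; F test 0.74, 0.00159), and these 2 are named after their values were seen. In the leukemia 1 of 62 passed, where 1.07% of all genes did. This was Dab2ip, which encodes a GTPase-activating protein of RAS. It read -6.80, -5.44, -5.17 and -4.87 in M0-p20, all at background, and -0.76, -1.44 and -1.0 in J365-p20. The groups did not overlap, and it was at least 12.1-fold higher in J365-p20 (4.50, SE 0.45, adjusted p = 0.00307, in a range of 0.000381 to 0.0543, and 1.94 with normexp). It entered the leukemia test only through the 3 J365-p20 arrays, so it had to differ and the p adds little to the levels; with no filter it was 0.0068. Too few arrays above background remained to test it with the number 0 arrays left out. In B16-D-735 the same gene was lower (-0.70, adjusted p = 0.00892), with an F test of 0.94 (0.00176). The test of B16-D minus B16-M less the leukemia change gave -4.26 (SE 0.44, adjusted p = 8.22e-06), with M0-p20 at background and the size not exact. Dab2ip was the 1 of 59 that passed there, where 1.36% of all genes did. Between the parental lines 37 of 84 were higher in B16-M and 26 lower, where 25.5% and 31.2% of all genes were.

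Several of these calls depended on single arrays or on the processing. The Kit call in B16-D-733 was lost without any 1 of the 3 B16-M arrays or of B16-D-733 replicates 1, 2 and 3, with an adjusted p of 0.0515 to 0.144, and its F call without any 1 of B16-M replicates 0 and 1, B16-D replicates 1 and 3, B16-D-733 replicates 1 and 3 and the arrays of B16-D-735 and B16-D-739, with 0.0501 to 0.181. Kitl in B16-D-733 was lost without any 1 of the B16-M arrays, B16-D replicate 1, B16-D-733 replicates 0 and 2, B16-D-735 replicate 2 and B16-D-739 replicates 1 and 2 (0.0503 to 0.146). Shc3 in B16-D-733 was lost without any 1 of B16-M replicates 0 and 1, B16-D replicate 1, B16-D-733 replicates 0 and 2 and B16-D-739 replicates 0 and 1 (0.0508 to 0.143). Trib1 was lost in B16-D-733 without B16-M replicate 1 or 2 or B16-D-733 replicate 2 (0.0505 to 0.0921), in B16-D-739 without any 1 of B16-M replicates 1 and 2, B16-D-733 replicates 1 and 3, B16-D-735 replicates 0 and 1 and the B16-D-739 arrays (0.0511 to 0.178), and in the F test without B16-D-735 replicate 2 (0.099). Epha4 in B16-D-739 was lost without any 1 of the B16-M and B16-D-739 arrays or of B16-D-733 replicates 1 and 3 (0.0503 to 0.133) and, with the replicate block, had -2.40 (0.051). In B16-D-735 Egf was lost without any 1 of the B16-M arrays or of B16-D-735 replicates 1 and 2 (0.0524 to 0.102) and Mras without B16-M replicate 0 (0.0596) or B16-D-735 replicate 1 (0.0618), and Fgf1 in B16-D-733 was lost without B16-M replicate 2 (0.0622). Rasgrp3 in B16-D-735 was lost in 8 of 28 alternatives, without B16-M replicate 0 (0.1) or 1 (0.0722) or B16-D-735 replicate 1 (0.11) or 2 (0.0737), with the number 0 arrays left out (-0.66, 0.127), with normexp (-0.60, 0.0664), with no filter (0.0684) and with only the lines compared (0.124). Phlda1 in B16-D-739 was lost in 20 of 28 (0.0503 to 0.194), namely without any 1 of the arrays of B16-M, B16-D-735 and B16-D-739, of B16-D replicates 1 and 3 and of B16-D-733 replicates 0, 1 and 3, with the number 0 arrays left out, normexp, no filter, the mean of all probes, B16-D replicate 2 included and only the lines compared. Its F call was lost with the number 0 arrays left out (0.73, 0.0519).

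Leaving out the number 0 arrays ended the B16-D-733 calls of Kit (1.04, adjusted p = 0.0688), Kitl (-0.68, 0.131) and Shc3 (0.83, 0.247), the F calls of Kit (1.37, 0.0852) and Kitl (1.12, 0.0676), and the B16-D-735 calls of Dab2ip (-0.67, 0.0771), Fgf1 (-0.83, 0.0675) and Egf (1.07, 0.126). The date as a block ended those of Kit (0.57, adjusted p = 0.285; F test 0.77, 0.181), Kitl (-0.66, 0.186), Shc3 (1.55, 0.0595), Fgf1 (-0.64, 0.113) and Trib1 (0.79, 0.0636) in B16-D-733. Normexp ended those of Egf (0.11, adjusted p = 0.773) and Dab2ip (-0.60, 0.0622) in B16-D-735, Kitl in B16-D-733 (-0.30, 0.099) and Trib1 in B16-D-739 (0.53, 0.168), beside Shc3 in B16-D-733 and Dusp9 in B16-D. Quantile normalization ended Shc3 (1.25, adjusted p = 0.0736), Kitl (-0.65, 0.106) and Egf (0.98, 0.0664). With no filter the adjusted p was 0.0677 for Kit (F test 0.0758), 0.0719 for Shc3, 0.089 for Kitl, 0.0513 for Egf, and 0.0612 for Epha4 and 0.101 for Trib1 in B16-D-739. The mean of all probes ended Fgf1 in B16-D-733 (-0.79, adjusted p = 0.146) and B16-D-735 (-0.74, 0.231), Mras (-1.13, 0.0711) and Kitl (-0.75, 0.0993). With only the lines compared in the fit, the adjusted p of Emp1 was 0.155 in B16-D and 0.0582 in B16-D-735, that of Trib1 0.216, 0.0616 and 0.174 in its 3 lines, and in B16-D-733 that of Kit 0.0938, Shc3 0.149, Kitl 0.134 and Epha4 0.0715. In B16-D-735 it was then 0.0574 for Egf and 0.06 for Dab2ip, and in the F test 0.0695 for Kit. Including B16-D replicate 2 gave 0.081 for Shc3 in B16-D-733 and 0.0653 for Trib1 in B16-D-739, and the replicate block 0.0618 for Kit in the F test.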

How the data were processed

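RNA of 24 samples was measured on Agilent mouse arrays read in a single colour. The deposited values are the processed signal intensity of each spot, made with Feature Extraction 10.7.3.1 per the file headers; the submitters also name GeneSpring GX 13.0 without stating a normalization or test. Each array held 62976 spots, of which 3671 were controls and 59305 measured 56605 probes. From the deposited intensity, log2 minus the array's 75th percentile (a signal of 419 to 729 on the 23 arrays tested) was computed, 2468 spots marked as outliers were dropped, the saturated spots numbered 0, and the mean over a probe's spots was taken. RefSeq identifiers joined 32994 probes to 22911 symbols, of which 7899 had several probes. Another 22711 identifiers had no symbol, and each was kept and counted as a gene in the tests and in the shares of all genes. For each gene 1 probe was kept, that with the highest mean. Of the 43 members 21 had several probes.

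Groups were the labelled lines, without B16-D replicate 2. limma 3.58.1 in R 4.3.3 (with the data.table package, version 1.17.8) fitted the 16 melanoma arrays, the 7 leukemia arrays, or all 23, with two-sided moderated tests, genes well above background on at least 3 arrays, and Benjamini-Hochberg adjustment over all genes tested at 0.05. The test of the change between the models was narrower, with 20817 genes tested against 26460 for the parental lines. Its members were those tested in both models. The procedure was tested on simulated data. Figures and promoter searches used Python 3.11.15 and matplotlib 3.10.9. Members and lists, among them 103 other pathway genes and 8 marker lists (melanocyte, myeloid, fibroblast, endothelial, macrophage, lymphocyte, brain, erythroid), were chosen with earlier results of these data known. Named with values on every array were members past the threshold in a dormancy, F or interaction test, at most 4 a list by absolute difference (8 members), at most 12 other genes by the same rule, and the brightest and dimmest probe of each list, which picked names only and ranks no gene against another. Others named with values were chosen after they were seen.

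Alternatives were normexp background correction (offset 50, on the median spot signal, in place of the mean), quantile normalization, a strict or no filter, other probe rules, slide or title number as a block, B16-D replicate 2 included, only the compared lines in the fit, each array left out in turn and, added after seeing the data, the number 0 arrays left out and the date in the title as a block. Before a replicate block was used, the pairing by title number was checked as the correlation across genes of paired arrays after line means were removed. It was 0.58, 0.35 and 0.82 for B16-D-733 with B16-M (of its 2 arrays with title number 1, replicate 1 was used) and 0.74, 0.58 and 0.83 for B16-D-739 with B16-M, and these were treated as paired. The B16-D-739 values cannot tell the number from the slide, since arrays of the same number shared a slide with those of B16-M. For B16-D it was 0.28 and 0.04, for B16-D-735 0.80, -0.31 and -0.34, and for the leukemia lines 0.51, -0.04 and 0.16, which were not. Genes are not independent replicates.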

Additional observations from a re-analysis of the deposited data

Results flagged for a closer look

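In the lines with 4 arrays (B16-D with replicate 2, B16-D-733 and M0-p20), each member was examined for an array far from the other 3, by Dixon's ratio against its critical value. Chance gives about 1 in 20 groups; of 129 pairs of gene and line, 6.4 would be expected and 10 were found. In B16-D they were Dusp1 at 1.66 and Dusp2 at 3.52 on replicate 0, where the other arrays lay at 0.19 to 0.38 and 1.84 to 2.12, and Spred1 at 1.47 on replicate 3 (others 1.24 to 1.28). In B16-D-733 they were Dusp1 at 1.16 on replicate 0 (others 0.57 to 0.66), Dusp10 at -3.68 on replicate 0 (others -4.52 to -4.45) and Rps6ka1 at 2.39 on replicate 2 (others 2.06 to 2.08). In M0-p20 they were Erbb3 at -5.87 (others -6.94 to -6.78), Egr1 at -4.98 (others -6.82 to -6.74) and Ier3 at 2.60 (others 4.22 to 4.39) on replicate 0, the first pair at background, and Map2k2 at 2.58 on replicate 1 (others 2.01 to 2.08).

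The change from B16-M differed among the 4 dormant melanoma lines, by the F test, for members Rps6ka6 (line means spanning 6.28), Fgfr1 (1.43), Met (0.97), Dusp7 (0.66) and Map2k1 (0.54), and for the other pathway genes Dusp9 (2.06), Plaur (1.48), Kitl (1.25), Kit (1.12), Trib1 (0.97), Dab2ip (0.94) and Phlda1 (0.74). The change from parental to dormant line differed between melanoma and leukemia for Dab2ip (-4.26) and Fgfr1 (-1.89). The sizes for Rps6ka6, Dusp9 and, between the models, Dab2ip are not exact, since they involve lines at background. Rps6ka6 entered the test only through the 3 B16-D-735 arrays, and with normexp its span was 2.45. B16-D replicate 2, which was outside the tests, had 90.3% of its spots and 41 members above background, where the other B16-D arrays had 35, 37 and 40 members. The causes were not tested.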

How the results depend on the processing

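The number of arrays, 3 or 4 a line, limits the precision of every value, and dim probes near background limit the folds. Of 2809 values of 93 single-gene results under the alternatives, 2593 kept their direction and side of the threshold, 195 kept the direction but no longer passed, 10 newly passed and 11 changed sign. The last concern Etv4 and Etv5, whose differences had not passed. Etv4 in B16-D-733 (-0.09) was 0.05 with the mean of all probes, 0.07 with the replicate block, 0.52 without the number 0 arrays and 0.89 with the date block. Leaving out 1 array gave -0.60 (without B16-M replicate 2) to 0.86 (without B16-M replicate 0) for Etv4 in B16-D-733, -1.19 (without B16-D-735 replicate 0) to 0.69 (without B16-M replicate 0) for Etv4 in B16-D-735, and -0.02 (without B16-D-735 replicate 0) to 1.59 (without B16-M replicate 0) for Etv5 in B16-D-735. The cause was not tested.

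Counts of genes past the threshold that moved by over 1.5 times were, with no filter, 492 in B16-D, 892 in B16-D-733, 1115 in the F test and 534 in the interaction of dormancy and model. With slide as a block they were 2203 in B16-D-733, 2154 in B16-D-735, 1485 in B16-D-739, 2642 in the F test and 477 in the interaction. With only the lines compared in the fit they were 86 in B16-D, 530 in B16-D-735, 462 in B16-D-739 and 126 in the interaction, and with the strict filter 620 in the interaction. Counts of members that moved are given with the share of all genes that passed. With slide as a block they were 2 in B16-D (5.13%), 2 in B16-D-739 (6.11%) and 2 in the interaction (2.29%), and with the date block 3 in B16-D (3.77%). With the number 0 arrays left out, which were singled out by the values of members, they were 5 (3.97%), 4 (6.83%) and 3 (3.69%) in B16-D, B16-D-733 and B16-D-739 and 4 in the interaction (1.74%). With the mean of all probes they were 1 in B16-D-733 (5.30%), 0 in the leukemia (1.01%) and 0 in the interaction (1.31%), with only the lines compared 2 in B16-D-735 (2.32%), with normexp 0 in the interaction (1.13%), and with quantile normalization, the strict filter and no filter 2 each in the interaction (1.49, 2.68 and 1.17%). The members lowest on the number 0 array in all melanoma lines were 2 with normexp (8.47% of all genes) and 2 with quantile normalization (8.04%). Members detected in each line moved by under 1.5 times with other detection rules, in B16-M from 36 to 40 for positive and significant signal and to 34 for every array, and in M0-p20 from 33 to 36 and 31.

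With the replicate block members past the threshold were 2 in B16-D (4.86% of all genes), 5 in B16-D-733 (8.20%), 6 in B16-D-735 (6.66%), 2 in B16-D-739 (5.15%), 10 in the F test (9.65%) and 0 in the leukemia, where 117 genes (0.509%) passed. The block was used for lines that were not paired as well: there it newly passed Spred3 in B16-D (-0.85, adjusted p = 0.0447) and Pdgfra (-2.35, 0.00241) and Dusp6 (0.81, 0.0343) in B16-D-735, and lost Fgfr1 (2.27, 0.0537) and Dab2ip (4.64, 0.0543) in the leukemia. In the F test it newly passed Sos1, Spred3, Map2k2, Spry4 and Pdgfra. For the counts of 0, all from limma, the fits reported had 4 members at an unadjusted p under 0.05 in the leukemia and 4 in the interaction.

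Leaving out 1 array gave, for B16-D, 413 (without B16-M replicate 1) to 994 genes and 1 to 3 members, for B16-D-733 737 to 1824 genes and 1 to 3 members, for B16-D-735 723 to 1685 genes and 2 to 6 members, for B16-D-739 559 to 1223 genes and 1 to 2 members, for the F test 862 to 2290 genes and 2 to 7 members, and for the leukemia 118 (without J365-p20 replicate 1) to 268 (without M0-p20 replicate 0) genes. The highest gene counts of the 5 melanoma tests came without B16-D replicate 0. The authors' values are the processed signal itself (largest difference 0), so that alternative gave no other value, and with the leukemia lines alone the fit is the one reported. Rps6ka6 could not be tested without the number 0 arrays. The causes of these shifts were not tested.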

Other observations

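Of the 81 other pathway genes tested in the melanoma lines, 4 were highest on the number 0 array in all 5 lines, where 3.75% of all genes were: Hbegf, which encodes a ligand of the EGF receptor, Dusp14, Epha2 and the cyclin gene Ccnd1. Another 4 were lowest on it, where 9.15% of all genes were: Ets1, Shc4, Gab3 and Map3k1. The number lowest was 2 with normexp (8.47% of all genes) and 7 with quantile normalization (8.04%). These are counts of arrays, with no test, and they were looked at after the data were seen.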
